A study of Mus musculus with 6 samples.

Results

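The pancreas of newborn Spink3-/-XKI/+ mice was compared with that of Spink3+/+ (wild-type) mice, with 2 arrays per genotype taken from the 6 arrays of the series. All animals were of the C57BL/6N strain and were sampled at postnatal day 0.5, and RNA came from the whole organ. Both copies of Spink3 are inactivated in the Spink3-/- and Spink3-/-XKI/+ genotypes, and by the study's own description only part of the acinar cells of Spink3-/-XKI/+ are normal while the others die by a route with autophagy that is not apoptosis. In Spink3-/- every acinar cell is described as dying in this way, and its 2 arrays are given beside the others and share in the estimate of the spread. The labels leave unsaid what XKI stands for and how Spink3 was inactivated. They also do not tell if replicates are different mice, so each p-value below reflects only sample-to-sample spread that may be technical. Of 55681 probes, 24628 were well above background on both arrays of Spink3-/-XKI/+ or both of Spink3+/+, and 17832 of these carried a gene name. They gave 13762 tested genes, of 13841 that passed in any of the 3 genotypes.

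Spink3 encodes a small secreted inhibitor of trypsin that acinar cells store and release together with their digestive enzymes. When trypsin is active inside the acinar cell, the cell is damaged, and injured acini are known to secrete lectins of the regenerating (REG) family. Acinar cells devote most of their endoplasmic reticulum to enzyme secretion and turn over damaged organelles by autophagy, in which membrane sacs deliver cell contents to lysosomes. A whole organ also holds ducts, islets, vessels, fibroblasts, blood cells and muscle of neighbouring tissue. Fewer cells of a type and less RNA per cell cannot be told apart in such samples.

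Levels below are log2 signals minus the 75th percentile of their array, so that a level of 0 is that percentile, and differences are Spink3-/-XKI/+ minus Spink3+/+ on the log2 scale. Between 42.4% and 50.8% of spots were well above background and no spot was saturated. All arrays lay on 1 slide, where both Spink3+/+ arrays occupied row 1 and both Spink3-/-XKI/+ arrays row 2, so slide row and genotype cannot be told apart. Replicate 2 of Spink3-/-XKI/+ stood apart in smooth muscle genes. The summed level of the 7 tested smooth muscle markers, of 8 listed (log2 of their summed signals on the same scale) was 6.38 and 6.68 in Spink3+/+ but 7.47 and 9.26 in Spink3-/-XKI/+. Lmod1 was the marker without enough signal. For 24 of 26 macrophage markers, all but Ccr2 and Timd4, it was 7.34 and 7.39 against 7.83 and 7.77. Both sets were thus higher in the arrays in which the genes described below differ, and their part in those differences was not tested.

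Spink3 was the only gene that passed the test. Its level was 9.84 and 10.26 in Spink3+/+ and 2.64 and 2.34 in Spink3-/-XKI/+. The groups were far apart: Spink3 fell by 7.56 on the log2 scale (SE 0.23, 189-fold, limma with Benjamini-Hochberg adjustment, adjusted p = 0.000503). The same probe read 3.25 and 2.95 in Spink3-/-, so that both arrays of the partly normal pancreas lay slightly below both of these. Spink3 stayed well above background on all 6 arrays. The labels do not place its probe relative to the inactivated stretch, so the probe checks the labels only in part. With slide row as a block, an estimate that rests on the 2 Spink3-/- arrays (1 in each row), the difference was -7.25 and the limma adjusted p 0.0862.

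Beyond Spink3 no gene passed the adjusted threshold of 0.05. The limma test with adjusted p under 0.05 called 0 of 13762 genes (0%) as higher and 1 (0.00727%) as lower. At an unadjusted limma p under 0.05, 716 genes (5.2%) were higher and 359 (2.61%) lower. These 1075 genes compare with 688 expected by chance. Both Spink3-/-XKI/+ arrays lay above both Spink3+/+ arrays for 3573 genes (26%) and below both for 2245 (16.3%), and the mean difference was above 0 for 56.2% of genes and below 0 for 43.8%. The median difference over all genes was 0.04. These shares are the background against which the lists below are read. The filter itself admitted more genes that are higher. Of the tested genes, 386 were above background on both Spink3-/-XKI/+ arrays and neither Spink3+/+ array, and 18 the reverse. Over 12517 genes above background on all 4 arrays, 3007 were higher and 2137 lower without overlap. The genes nearest to the threshold after Spink3 were Reg2, Saa3, Nsun7, Bglap2 and 3021401N23Rik, all at an adjusted p of 0.0762 in limma. The last 3 are named here because of these values. In the direct test of Spink3-/-XKI/+ against Spink3-/-, limma called 0 genes (0%) in each direction, and 985 (7.16%) had an unadjusted p under 0.05.

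**Figure D1:**
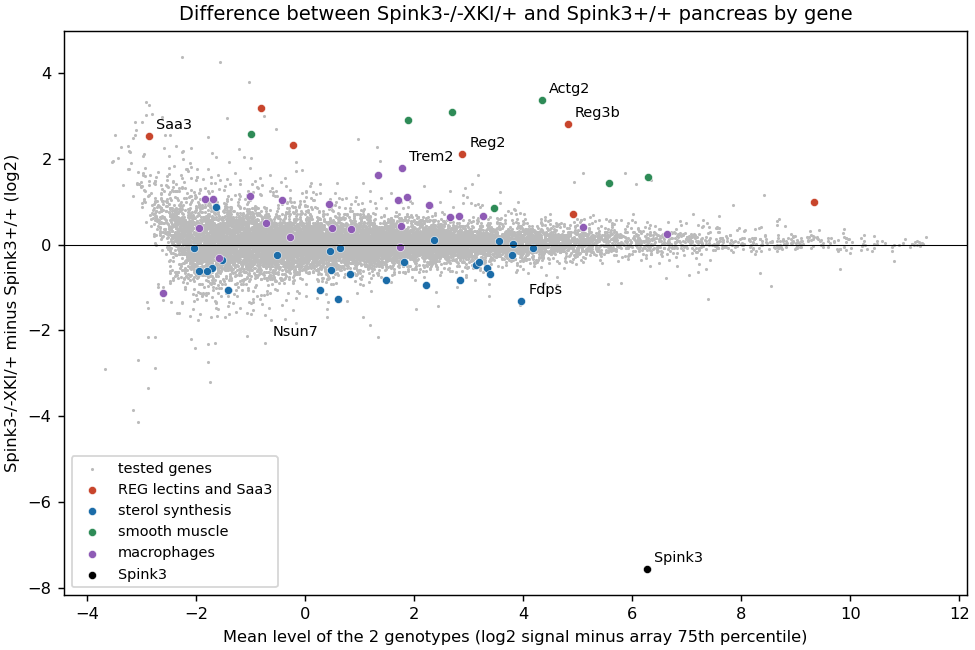
Each grey point is 1 of the 13762 tested genes, with its mean level over both genotypes on the x axis (log2 signal minus the array's 75th percentile) and its difference, Spink3-/-XKI/+ minus Spink3+/+, on the y axis (log2). Spink3 lies alone at -7.56, the REG lectins, Saa3 and all tested smooth muscle markers lie above 0, and most sterol synthesis genes lie below 0.

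The acinar enzymes differed little. Of 25 tested digestive enzyme genes, of 32 listed, 3 were higher and 6 lower without overlap between the groups, 2 were higher and 1 lower at an unadjusted p under 0.05, and the median difference was 0.02. Pnlip, pancreatic triacylglycerol lipase, stood at -0.07 and -0.79 in Spink3+/+ and at 0.96 and 0.36 in Spink3-/-XKI/+. Its Spink3-/- arrays read -1.95 and -1.73, so the 3 genotypes did not overlap and the partly normal pancreas was the highest (difference 1.09 from Spink3+/+). Pla2g1b, the secreted pancreatic phospholipase A2, was ordered in the same way, with 3.45 and 3.56 in Spink3+/+, 3.95 and 4.23 in Spink3-/-XKI/+, and 2.90 and 2.91 in Spink3-/-. The amylase copy Amy2a4 was lower, at 0.94 and 0.99 against 0.08 and -0.48, although amylase copies are near-identical and its probe may also bind others. Cel, carboxyl ester lipase, and Cela1, an elastase, were each lower by 0.56 with no overlap. The trypsinogens lay close together in both groups: Prss1 differed by 0.02, Try4 by 0.04 and Try5 by 0.06, with SEs from 0.17 to 0.23.

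Genes of acinar identity and secretion were also near the median of all genes. Among 25 of 26 such genes (5 higher and 5 lower without overlap, 3 and 2 at an unadjusted p under 0.05), the median was -0.02. The lineage factors Ptf1a, Rbpjl and Bhlha15 differed by 0.17, 0.06 and -0.09. Gp2, a glycoprotein of the zymogen granule membrane, was higher at 8.12 and 8.50 against 7.27 and 7.52, and Sctr, the secretin receptor, at 1.12 and 1.55 against 0.83 and 0.64. Chrm3, the muscarinic receptor through which nerves evoke secretion, lay lower on both arrays, by 0.73. Without 1 of the Spink3+/+ arrays the enzymes' median was -0.11 or 0.10. With slide row as a block the medians of the enzymes and of the acinar genes were -0.40 and -0.33, and the difference of Gp2 turned to -0.05.

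Among other protease inhibitors, Slpi, which blocks neutrophil elastase, stood at 2.51 and 3.03 in Spink3+/+ and at 3.57 and 3.74 in Spink3-/-XKI/+, without overlap. It was also higher than in Spink3-/- (2.26 and 2.04). Of the 15 tested inhibitors besides Spink3, 6 were higher and 0 lower without overlap. Spink4 and Spink2, which belong to the same family as Spink3, differed by 0.23 and -0.65, with overlap between the groups in each.

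Transcripts of the autophagy machinery were spread around the median of all genes. Of 45 tested genes, 12 were higher and 8 lower without overlap, 2 and 3 had an unadjusted p under 0.05, and the median was 0.03. This median was -0.10 without replicate 2 of Spink3+/+ and -0.20 with slide row as a block. Vmp1, an endoplasmic reticulum membrane protein needed to form autophagosomes, was higher (2.83 and 3.00 against 3.57 and 3.34), as was Tfeb, a transcription factor for lysosome genes, by 0.48. Sqstm1, the p62 cargo receptor, was higher by 0.55 without overlap but at an unadjusted p of 0.116, while Map1lc3b, whose product is the usual marker of autophagosomes, was lower by 0.33 with overlapping groups. Epg5, a tether for fusion with lysosomes, Atg9a, a lipid scramblase of the growing membrane, and Bnip3, a receptor for mitochondria, were lower by 0.73, 0.64 and 0.61. Of the lysosomal cathepsin genes 6 of 10 were higher without overlap and 0 lower, with a median of 0.20, against 0.05 for all 45 lysosomal genes. Lgmn, the asparaginyl endopeptidase legumain, read 3.38 and 3.44 in Spink3+/+ and 4.51 and 4.28 in Spink3-/-XKI/+. Ctsb, cathepsin B, an enzyme able to activate trypsinogen, read 4.75 and 5.07 against 5.74 and 5.33.

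The unfolded protein response was divided. Of 33 tested genes 9 were higher and 13 lower without overlap, with a median of -0.08. Atf3, a stress-induced transcription factor, stood at -2.83 and -1.91 in Spink3+/+, where 1 of 2 readings was above background, and at -0.03 and -0.84 in Spink3-/-XKI/+. Trib3, a pseudokinase, and Ddit3, the CHOP transcription factor, both induced under endoplasmic reticulum stress, were higher by 1.25 and 1.02 with no overlap. Herpud1, a partner of the degradation machinery, Asns, asparagine synthetase, and Atf6, a stress sensor, were lower by 0.54, 0.51 and 0.55. Of 36 genes of protein translocation and transport 3 were higher and 12 lower without overlap, and 0 had an unadjusted limma p under 0.05.

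REG lectins and acute-phase genes were mostly higher. Of 14 tested genes, of 25 listed, 11 were higher and 0 lower without overlap, 10 and 0 had an unadjusted p under 0.05, and the median was 0.96 (0.88 with Saa3, which was below background in Spink3+/+, at its bound). Over genes above background on all 4 arrays, 8 of 11 were higher and 0 lower without overlap, with a median of 0.72. With normexp background correction 10 of 14 were higher and 0 lower, with a median of 0.66. All 6 tested REG lectins were among the 11 higher genes of the full list, with a median of 2.22. The 6 genes are neighbours on chromosome 6, and RefSeq's promoter table (build GRCm38.p6) matched all of them. The 120 bases before each start site are shown because all 6 genes were higher, 5′ to 3′ on the strand of the gene, with capitals for TATAAAA (either strand), the letters of a TATA box.
Reg3a, chr6:78380589-78380708, plus strand: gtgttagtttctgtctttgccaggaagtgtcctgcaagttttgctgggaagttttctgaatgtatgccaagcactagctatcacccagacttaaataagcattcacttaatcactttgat
Reg3b, chr6:78370765-78370884, plus strand: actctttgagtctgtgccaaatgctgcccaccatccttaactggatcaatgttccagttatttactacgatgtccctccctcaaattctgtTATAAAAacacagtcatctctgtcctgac
Reg3g, chr6:78468875-78468994, minus strand: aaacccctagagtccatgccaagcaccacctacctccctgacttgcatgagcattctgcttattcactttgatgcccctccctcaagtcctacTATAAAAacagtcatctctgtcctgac
Reg2, chr6:78405035-78405154, plus strand: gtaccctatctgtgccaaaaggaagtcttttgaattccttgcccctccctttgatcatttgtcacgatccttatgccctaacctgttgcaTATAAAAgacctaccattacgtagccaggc
Reg1, chr6:78425863-78425982, plus strand: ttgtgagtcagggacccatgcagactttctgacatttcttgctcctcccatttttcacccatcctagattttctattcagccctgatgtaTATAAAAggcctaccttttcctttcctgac
Reg3d, chr6:78378866-78378985, minus strand: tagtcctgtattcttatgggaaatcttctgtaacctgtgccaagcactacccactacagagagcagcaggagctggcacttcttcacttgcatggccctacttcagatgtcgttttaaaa
In the windows of Reg3b, Reg3g, Reg2 and Reg1 the match began 29, 27, 30 and 30 bases before the start. Within 250 bases before the start, 4 of the 6 genes held these letters, as did 4.98% of all 32851 promoter windows in the table.

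Reg3b, the mouse pancreatitis-associated protein, stood at 4.11 and 2.74 in Spink3+/+ and at 5.88 and 6.57 in Spink3-/-XKI/+. The groups did not overlap and the difference was 2.80 (SE 0.46, limma, adjusted p = 0.253). Reg3g, an antibacterial lectin of gut epithelia, read -1.80 and -0.96 against 0.44 and 1.44, and Reg3a, above background on 1 of the 2 Spink3+/+ arrays, read -2.99 and -1.80 against 0.85 and 0.72. Reg2 had the closest replicates, 1.79 and 1.86 against 3.91 and 3.96, a 4.32-fold difference that missed the threshold (limma, adjusted p = 0.0762) and passed it with another background correction, normexp. Reg1 and Reg3d, expressed in the normal exocrine pancreas, were higher by 0.99 and 0.72. Reg2 and Reg3a also exceeded both Spink3-/- arrays (2.43 and 2.85 for Reg2, -0.73 and -1.64 for Reg3a), by 1.29 and 1.97 in the direct comparison (unadjusted limma p of 0.000517 and 0.00456).

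Saa3, an acute-phase apolipoprotein made outside the liver, was not well above background on either Spink3+/+ array (-4.09 and -4.15) and read -1.83 and -1.38 in Spink3-/-XKI/+. With the dimmest signal called above background on each Spink3+/+ array in place of the reading there, Saa3 was at least 1.78-fold higher, a bound used below for other such genes. Lgals3, galectin-3, read 2.84 and 3.08 against 4.34 and 4.03. The remaining acute-phase genes were mixed. Cp, ceruloplasmin, was higher by 0.71 and Itih4, above background on 1 of 2 Spink3+/+ arrays, by 0.93, whereas Hp, haptoglobin, Lcn2, lipocalin 2, and Lbp, a lipopolysaccharide-binding protein, overlapped between the groups at differences of 0.44, 0.19 and -0.41.

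**Figure D2:**
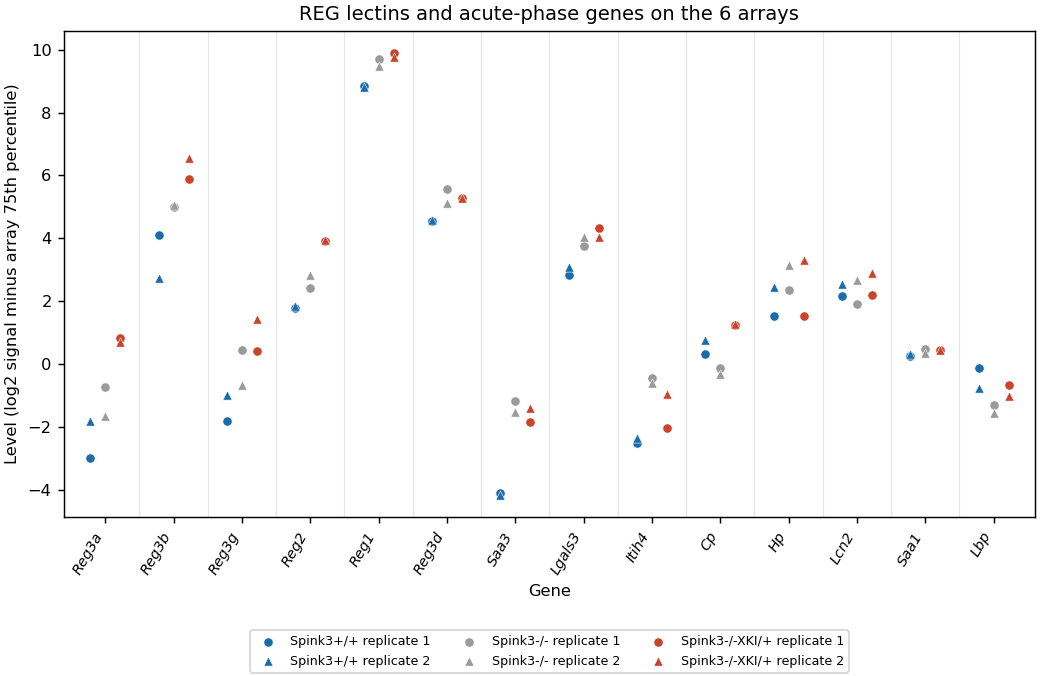
Levels of 6 REG lectins and 8 acute-phase genes (y axis, log2 signal minus the array's 75th percentile) on each array, coloured by genotype with the marker shape giving the replicate. For 11 of the 14 genes both Spink3-/-XKI/+ points lie above both Spink3+/+ points, and Reg2 shows the least spread, at 1.79 and 1.86 against 3.91 and 3.96.

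Sterol synthesis genes were mostly lower. Cholesterol is built from acetyl-CoA in a long chain of enzymes whose genes are activated together by SREBP transcription factors when sterols are scarce, and INSIG proteins hold SREBP back. Of 28 tested genes, of 31 listed, 19 were lower and 2 higher without overlap, 10 and 0 had an unadjusted p under 0.05, and the median was -0.51. The late enzymes, from squalene onwards, were the most uniform: 10 of 11 were lower without overlap and 0 higher, with a median of -0.61. Among 8 enzymes of the early steps 5 were lower and 1 higher (median -0.32), and among 9 genes of sterol control 4 were lower and 1 higher (median -0.25).

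The promoter table held 22 of the 28 genes. Windows of 250 bases before the start are shown for Hmgcs1, which holds a classic sterol regulatory element, and for Insig1 and Idi1, both lower by more than 1 on the log2 scale. Capitals mark CCAAT and the letters TCACNCCAC of that element, on either strand.
Hmgcs1, chr13:119690101-119690350, plus strand: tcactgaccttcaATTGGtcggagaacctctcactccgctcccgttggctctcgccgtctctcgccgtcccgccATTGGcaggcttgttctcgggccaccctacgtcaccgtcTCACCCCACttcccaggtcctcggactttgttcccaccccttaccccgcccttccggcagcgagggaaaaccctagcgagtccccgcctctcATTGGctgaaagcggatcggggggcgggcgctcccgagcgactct
Insig1, chr5:28071162-28071411, plus strand: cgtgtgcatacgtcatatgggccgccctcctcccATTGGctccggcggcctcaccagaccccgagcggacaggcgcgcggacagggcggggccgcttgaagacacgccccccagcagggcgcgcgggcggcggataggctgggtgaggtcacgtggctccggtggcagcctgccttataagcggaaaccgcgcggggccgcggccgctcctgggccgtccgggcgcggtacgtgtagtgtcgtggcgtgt
Idi1, chr13:8885356-8885605, plus strand: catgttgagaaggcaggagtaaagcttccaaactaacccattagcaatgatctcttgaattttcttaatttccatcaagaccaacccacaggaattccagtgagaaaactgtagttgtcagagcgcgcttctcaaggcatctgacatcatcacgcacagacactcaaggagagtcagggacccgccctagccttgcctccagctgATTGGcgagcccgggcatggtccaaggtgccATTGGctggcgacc
The sterol element of Hmgcs1 began 137 bases before the start. It was found in 1 of the 22 genes and in 1.05% of all windows, and CCAAT in 18 of the 22 and in 33.8% of all windows.

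Insig1, itself a target of SREBP, stood at 1.30 and 1.17 in Spink3+/+ and at 0.14 and -0.19 in Spink3-/-XKI/+. The groups were separated by more than the spread of either, at a difference of -1.27 (SE 0.20, limma, adjusted p = 0.253). Of the SREBP genes, Srebf2, which drives the sterol genes, was lower by 0.36, and Srebf1, which drives fatty acid genes more, was higher by 0.88, both without overlap and at an unadjusted p above 0.05.

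Along the pathway, Hmgcs1, which makes HMG-CoA, read 3.07 and 3.65 against 2.76 and 3.03. Of the mevalonate steps, Mvk was lower by 0.41 and Mvd by 0.14 without overlap, and Pmvk overlapped at 0.09. Differences varied among the isoprenoid steps. Idi1, the isopentenyl diphosphate isomerase, read 0.26 and 1.37 against -0.11 and -0.41, and Fdps, farnesyl diphosphate synthase, read 4.35 and 4.90 against 3.24 and 3.38. Fdps was lower by 1.31 (SE 0.24, limma, adjusted p = 0.285), whereas Ggps1, geranylgeranyl diphosphate synthase, was higher by 0.10. Of the enzymes that turn squalene into cholesterol, Sqle was lower by 0.82, Lss by 0.61, Msmo1 by 0.95, Sc5d by 0.68 and Dhcr7 by 1.07, all without overlap. Ebp, the sterol isomerase, was the late enzyme whose groups overlapped.

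In the direct comparison with Spink3-/- the median of these genes was -0.55, and 13 of 28 had an unadjusted p under 0.05. Fdps was 1.80 lower than in Spink3-/-, where it read 4.95 and 5.28, and Insig1 was 1.29 lower. This comparison shares the Spink3-/-XKI/+ arrays with the other and is not independent of it. The list median against Spink3+/+ was -0.31 without replicate 2 of Spink3+/+, -0.34 with normexp and -0.86 with slide row as a block. Fatty acid synthesis was less uniform: of 12 tested genes 5 were lower and 2 higher, with a median of -0.21. This median was -0.38 and -0.05 without replicates 1 and 2 of Spink3+/+, -0.06 without replicate 1 of Spink3-/-XKI/+, -0.14 with normexp and -0.09 with slide row as a block. Acss2, which activates acetate, and Fads1, a desaturase, were lower by 0.68 and 0.60. For Acss2 another probe of the gene was higher by 0.36. Of 9 genes of sterol export 5 were higher and 1 lower without overlap. Their median was 0.30, but 0.14 without replicate 2 of Spink3+/+, 0.20 and 0.47 without replicates 1 and 2 of Spink3-/-XKI/+, and -0.04 with slide row as a block. Abcg1, a cholesterol exporter, read -0.25 and -0.85 against 0.43 and 0.21, and Nr1h3, the sterol sensor LXR alpha, was higher by 0.73.

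**Figure D3:**
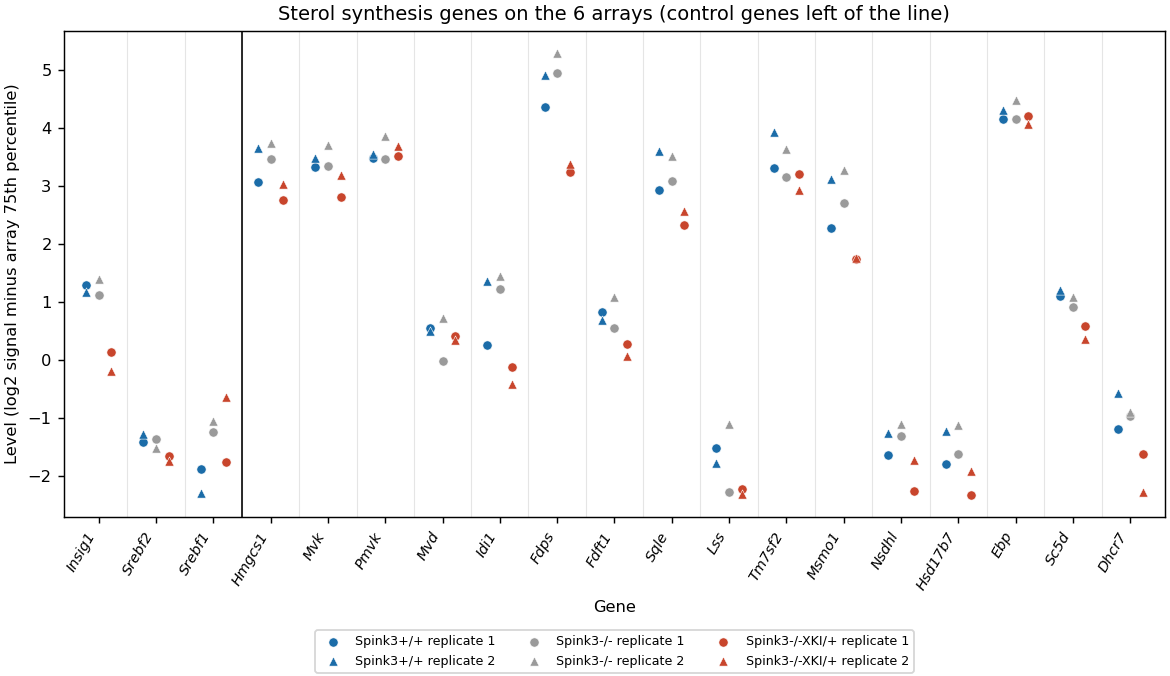
Levels of 3 control genes and 16 pathway enzymes (y axis, log2 signal minus the array's 75th percentile) on each array, with enzymes in pathway order from left to right. From Idi1 to Dhcr7 the red Spink3-/-XKI/+ points lie below the blue Spink3+/+ points except for Ebp, and for Fdps they lie at 3.24 and 3.38 against 4.35 and 4.90.

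Macrophage markers were mostly higher. Of 24 tested markers 20 were higher and 2 lower without overlap, 14 and 0 had an unadjusted p under 0.05, and the median was 0.65. Of the 24, 3 were below background in 1 of the groups and so passed the filter through the brighter group alone. With these 3 at their bounds the median was 0.65. Trem2, a lipid-sensing receptor of phagocytes, stood at 1.16 and 0.61 in Spink3+/+ and at 3.07 and 2.25 in Spink3-/-XKI/+. Its difference of 1.78 (SE 0.32, limma, adjusted p = 0.285) was the largest of the list, whose median was 0.41 with normexp. Ms4a7 read 0.39 and 0.68 against 2.54 and 1.74, and Cd68, a lysosomal protein of phagocytes, 1.17 and 1.46 against 2.73 and 2.12. In these genes replicate 1 of Spink3-/-XKI/+ was the higher of the pair. Of the scavenger receptors, Marco was higher by 1.04, and Msr1, which was below background in Spink3+/+, was at least 2.10-fold higher. The markers did not all point one way. Cd163, a haemoglobin scavenger receptor of resident macrophages, and Mertk, which clears dead cells, were lower (Cd163 at least 1.71-fold, Mertk by 0.32), Csf1r, which macrophages need to survive, was higher by 0.41, and C1qa overlapped.

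Cytokine, chemokine and NF-kappaB genes had a median of 0.63, with 20 of 29 tested genes higher and 1 lower without overlap and 7 and 0 at an unadjusted p under 0.05. Many listed members, among them Il1b, Il6 and Tnf, did not pass the filter for signal. Ccl6, a myeloid chemokine, stood at 2.64 and 2.19 in Spink3+/+ and at 3.40 and 3.63 in Spink3-/-XKI/+. Ccl9 read 2.05 and 1.57 against 2.74 and 2.70. Ccl8, a monocyte chemokine, was below background in Spink3+/+ and at least 2.31-fold higher in Spink3-/-XKI/+. Of the NF-kappaB subunits, Nfkb2 read -0.30 and -0.29 against 0.37 and 0.70, and Relb, its partner in the non-canonical pathway, was higher by 1.07, while Rela was higher by 0.24. Without replicate 1 of Spink3+/+ the list median was 0.36, and with normexp it was 0.35. Over the 21 genes above background on all 4 arrays, 13 were higher and 1 lower without overlap, with a median of 0.51.

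Immediate early genes, transcribed within minutes of a stimulus, included 9 of 24 that were higher and 1 lower without overlap (median 0.32). The median was 0.20 without replicate 2 of Spink3-/-XKI/+, 0.62 with slide row as a block and 0.19 over genes above background on all 4 arrays. Egr1 was higher by 1.23 on the log2 scale, and Egr2, below background in Spink3+/+, was at least 1.23-fold higher. Egr2 was lower than in Spink3-/-, where it read -0.52 and -1.44 against -2.40 and -1.89. Of genes of necroptosis and pyroptosis, forms of lytic cell death, 7 of 11 were higher and 0 lower without overlap, and 0 had an unadjusted p under 0.05. Their median was 0.33, but 0.06 with normexp, where 5 were higher and 1 lower without overlap. Tlr2, a receptor for bacterial lipoproteins, and Il18, a cytokine released by lytic death, were higher by 0.57 and 0.55. Of 26 apoptosis genes 7 (26.9%) were higher and 0 lower without overlap, against 26% and 16.3% of all genes. Their median was 0.07. Tnfrsf10b, a death receptor, read -0.32 and -0.13 against 0.32 and 0.56.

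Smooth muscle markers showed the largest median of the lists with at least 5 tested genes. All 7 tested were higher without overlap and at an unadjusted p under 0.05, with a median of 2.58. Actg2, the actin of visceral smooth muscle, stood at 2.52 and 2.79 in Spink3+/+ and at 4.64 and 7.41 in Spink3-/-XKI/+. Myh11, smooth muscle myosin, read 0.38 and 0.48 against 2.09 and 4.59, and Cnn1, calponin, 1.02 and 1.30 against 3.26 and 5.21. In all 7 replicate 2 was above replicate 1, and replicate 1 of Spink3-/- was also high, at 5.60 for Actg2. The count was 7 of 7 without replicate 2 of Spink3-/-XKI/+ as well, and the median was then 1.66. It was 1.57 with normexp and 4.35 with slide row as a block.

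Other muscle and stroma genes shared this order of arrays in part. Of 7 tested striated muscle genes, of 19 listed, 5 were higher and 0 lower, with a median of 1.08. It was 0.28 without replicate 2 of Spink3-/-XKI/+, 0.37 with normexp and 0.59 with the 2 genes that were below background in Spink3+/+ at their bounds. Myh8, a perinatal myosin, was at least 2.33-fold higher. Acta2, the actin of smooth muscle and of activated stellate cells, read 4.12 and 4.42 against 5.10 and 6.77. Timp1, an inhibitor of matrix proteases, was higher by 1.36. Prph, a filament of peripheral neurons, read -1.10 and -0.73 against -0.56 and 2.21, so that it too was high on replicate 2. The matrix genes themselves were close: Col1a1, Col1a2 and Col3a1 differed by 0.13, 0.13 and 0.04.

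**Figure D4:**
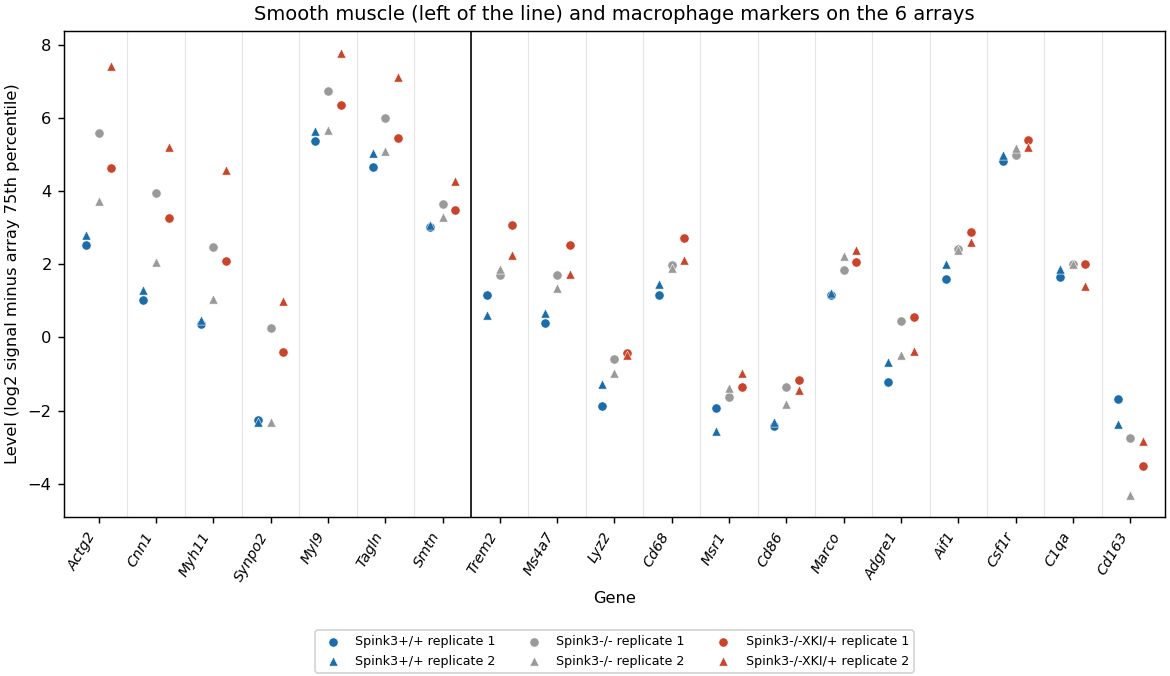
Levels of 7 smooth muscle markers and 12 macrophage markers (y axis, log2 signal minus the array's 75th percentile) on each array, coloured by genotype with the marker shape giving the replicate. Replicate 2 of Spink3-/-XKI/+ is the highest array for every smooth muscle marker, at 7.41 for Actg2, whereas replicate 1 is the higher of the pair for Trem2, Ms4a7 and Cd68.

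Neutrophil and erythroid genes were mostly lower. Of 15 tested neutrophil genes 9 were lower and 1 higher without overlap, 5 and 0 had an unadjusted p under 0.05, and the median was -0.50. Camp, the antimicrobial peptide cathelicidin, stood at 3.00 and 2.91 in Spink3+/+ and at 2.08 and 1.62 in Spink3-/-XKI/+. Mpo, myeloperoxidase, and Ltf, lactoferrin, were lower by 1.31 and 1.32. The means of 6 of the 15 genes were above 0, the highest being Cxcr2, a chemokine receptor, at 1.18 by its readings. The neutrophil median was -0.21 without replicate 2 of Spink3+/+, -0.81 without replicate 1 and -0.83 with slide row as a block. Of 9 tested erythroid genes 6 were lower and 1 higher (the embryonic globin Hbb-bh1), with a median of -0.97. Slc4a1, the anion exchanger of red cells, read 2.75 and 2.82 against 1.87 and 0.69. The erythroid median was -0.39 without replicate 1 of Spink3+/+ and -1.55 without replicate 2. Of 19 endothelial markers 10 were lower and 1 higher without overlap, though by little (median -0.13, or -0.20 without replicate 2 of Spink3+/+), and Cdh5, vascular cadherin, differed most, at 0.56 and 0.76 against 0.00 and -0.41.

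Interferon response genes were lower on both arrays for 14 of 32 tested and higher for 0, with a median of -0.35 and 5 and 0 at an unadjusted p under 0.05. Isg15, a ubiquitin-like modifier, stood at 3.40 and 3.64 in Spink3+/+ and at 3.03 and 2.37 in Spink3-/-XKI/+. Bst2, tetherin, read 3.57 and 3.61 against 3.16 and 2.71, and Stat2, which carries the interferon signal, 1.85 and 2.03 against 1.52 and 1.46. In Isg15 and Bst2 replicate 2 of Spink3-/-XKI/+ was the lower of the pair. The list median was -0.12 without that replicate, -0.19 without replicate 2 of Spink3+/+, -0.22 with normexp and -0.03 with slide row as a block. Cell cycle genes had a median of -0.19, with 14 of 32 lower and 2 higher and 9 and 0 at an unadjusted p under 0.05. Those 9 included mitotic cyclins: Ccnb1 read 1.01 and 1.14 against 0.36 and 0.43, and Ccnb2 1.60 and 1.59 against 1.08 and 0.58. Cdc20, which activates the anaphase-promoting complex, was lower by 0.61. This median was -0.32 and -0.06 without replicates 1 and 2 of Spink3+/+, -0.10 with normexp and -0.08 with slide row as a block.

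Some single genes lay outside the larger lists. Nsun7, a putative RNA methyltransferase, stood at 0.39 and 0.44 in Spink3+/+ and at -1.90 and -1.86 in Spink3-/-XKI/+. Its 4.92-fold difference had little spread (SE 0.20 on the log2 scale, limma, adjusted p = 0.0762), and Spink3-/- read -2.37 and -1.93. Bglap2, an osteocalcin gene with a near-identical copy, read 0.04 and -0.03 against -1.95 and -2.33, and -0.72 and -0.49 in Spink3-/-. The gene 3021401N23Rik was below background in Spink3+/+ and at least 2.20-fold higher. Slc13a3, a dicarboxylate transporter, read -2.70 and -1.80 against 0.70 and 0.77, with 1 of the 2 Spink3+/+ readings above background.

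By the mean of the readings, background-level ones included, the 10 genes with the largest positive differences were Nlrp4a, Cav3, Tnnt2, Actg2, Tmem51os1, Ccl8, Reg3a, Cnn1, Chl1 and Slc13a3. Of these only Actg2 and Cnn1 were above background on all 4 arrays. Reg3a and Slc13a3 were so on 1 of the 2 Spink3+/+ arrays and the other 6 on none, which leaves the order of the 10 unknown. Cav3, caveolin of muscle, and Tnnt2, cardiac troponin T, are muscle genes and were at least 7.96-fold and 9.83-fold higher. Nlrp4a, a gene of the NLR family, was at least 5.11-fold higher. On the lower side the rule gave, beside Spink3, genes such as Lrrc69, Olfr691, Slc51a, Nrn1l, Lpcat1, Olfr957, Smg8 and Tle4. All 8 were below background on both Spink3-/-XKI/+ arrays, so their size and order are unknown beyond a bound, which was as low as 1.51-fold for Olfr957. Lrrc69 read 1.77 and -1.25 in Spink3+/+, which is a wide gap between replicates, and -5.24 and -4.83 in Spink3-/-XKI/+. It was at least 8.40-fold lower and passed the threshold without replicate 2 of Spink3+/+. For Lpcat1 another probe of the gene differed in the opposite direction.

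Other lists had small medians. They were 0.12 for 26 endocrine genes and 0.09 for 17 duct genes, with Cftr, the chloride channel of ducts, higher by 0.99 (above background on 1 of 2 Spink3+/+ arrays) and Car2, carbonic anhydrase, lower by 1.19. Chga, chromogranin A of endocrine granules, read 5.83 and 5.73 against 6.48 and 6.15. For the 31 proteasome and 38 respiratory chain genes the medians were 0.01 and 0.06. Oxidative stress genes (21 tested) had a median of 0.05 and liver genes (15) one of 0.09. Leaving out 1 array turned the sign of the duct, proteasome, respiratory chain, oxidative stress and liver medians, the widest being liver at -0.26 without replicate 2 of Spink3-/-XKI/+. Of 16 p53 and acinar stress genes 7 were lower and 4 higher without overlap, with a median of -0.15 that was -0.03 without replicate 1 of Spink3-/-XKI/+, -0.09 and -0.28 without replicates 2 and 1 of Spink3+/+, -0.27 without replicate 2 of Spink3-/-XKI/+ and -0.33 with slide row as a block. Lpl, lipoprotein lipase, stood out among the fat cell genes at 1.46 and 1.35 against 2.52 and 2.33, while Fabp4, a lipid carrier of mature fat cells, was lower by 0.59.

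**Figure D5:**
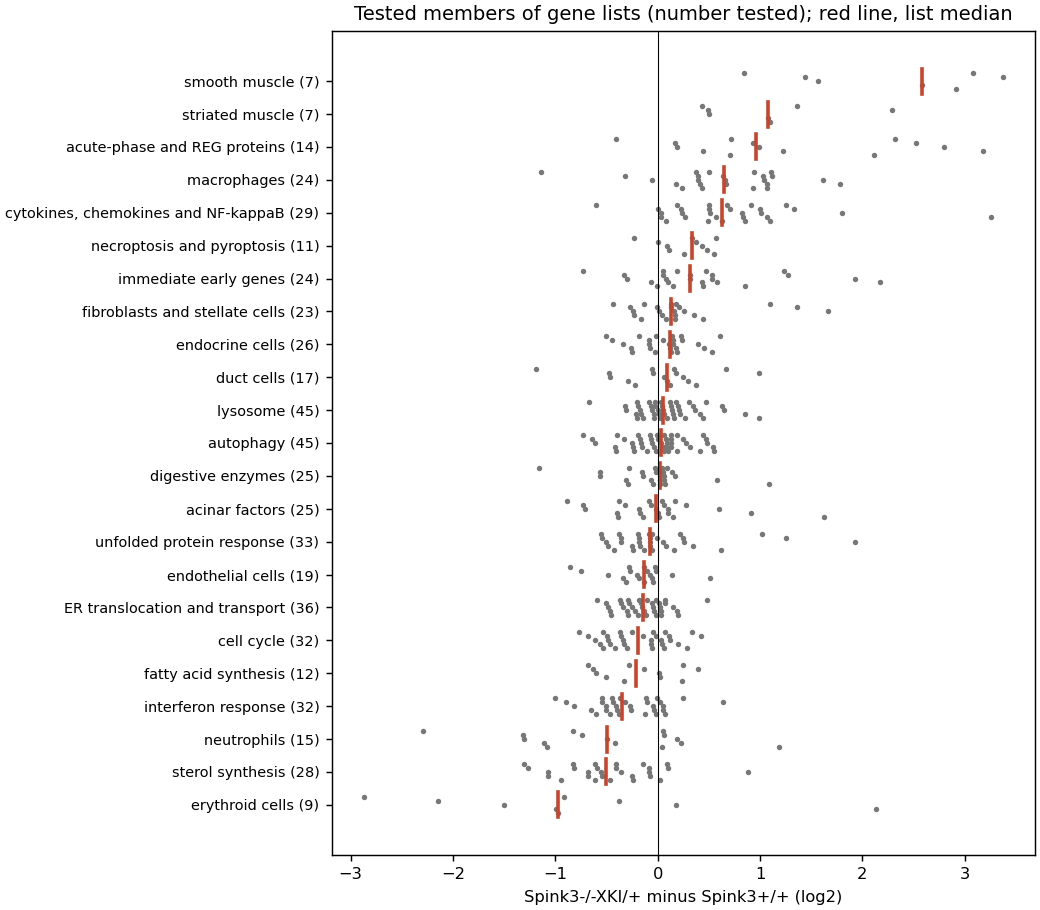
Differences (x axis, Spink3-/-XKI/+ minus Spink3+/+, log2) of the tested members of 23 gene lists, 1 grey point per gene, with the list median as a red line. Medians run from 2.58 for smooth muscle to -0.97 for erythroid cells, and those of digestive enzymes, acinar factors, autophagy and lysosome lie within 0.05 of 0.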

How the data were processed

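Agilent 1-colour arrays measured whole-pancreas RNA on 6 arrays, 2 per genotype. Per the file headers, Feature Extraction (10.7.3.1 in the submitters' processing notes) gave the deposited intensities: processed signals, mean and background signals, and flags. Each array had 62976 spots, 59305 of them not controls. Outlier spots were left out, log2 processed signals were scaled to the array's 75th percentile, and spots were averaged per probe. RefSeq's table named 26762 probes by accession, 3819 by symbol and 639 by older symbol, and 1184 kept the file's name, as did Spink3. Each gene was represented by its brightest unsaturated probe. limma 3.58.1 in R 4.3.3 fitted all 6 arrays by genotype, with Benjamini-Hochberg adjustment over 13762 genes. The arrays' number limits the precision. The test was checked on simulated data. Lists and members were chosen with earlier results of these data known, and motifs with the sequences in view. Named genes were Spink3, called genes, the 10 largest differences each way, up to 6 members per list by p and size, and pathway members in order; a few of these are not reported here. Alternatives covered background correction, scaling, filters, probe choice, blocks and left-out arrays.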

Additional observations from a re-analysis of the deposited data

How the results depend on the processing

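With a block for slide row, 0 genes were called by limma (614 higher and 410 lower at an unadjusted p under 0.05), and Spink3 was at -7.25 with an adjusted p of 0.0862, against adjusted p values from 1.25e-05 to 0.0203 under the other settings. Normexp background correction called 2 genes (Spink3 and Reg2) and quantile normalization 3 (Spink3, 3021401N23Rik and Btbd35f7). Leaving out 1 array in turn called 1 to 2 genes, Lrrc69 being added without replicate 2 of Spink3+/+, and put Spink3 between -7.77 and -7.35. With a replicate block 1 gene was called and Spink3 was at -7.56 (adjusted p = 0.00988). Same-numbered arrays of Spink3+/+ and Spink3-/-XKI/+ correlated at 0.03 in their deviations from the group means, so the numbers were not taken as pairs. The other settings called Spink3 alone. The slide row block reversed Gp2 (-0.05), Sar1b (0.15), Erbb2 (-0.05), Ndufs1 (0.03), Uqcrfs1 (0.05), Psmb2 (0.06) and Nkg7 (-0.03). Xist reversed with the mean of a gene's probes (-0.1) and Tmem51os1 without the filter on dim probes (-0.31). The cause was not tested. Of the genes without overlap, 61.4% were higher in Spink3-/-XKI/+, and between 53.9% and 62.9% over the settings. With 2 arrays per genotype on 1 slide, and signals near background for genes absent from one group, small differences could not be resolved.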

Other observations

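Among genes of other cell types, Msln, mesothelin, a surface protein of the lining of the abdominal organs, stood at 4.31 and 4.06 in Spink3+/+ and at 4.54 and 4.93 in Spink3-/-XKI/+. Of 7 tested mesothelial genes 4 were higher without overlap and 0 lower, against 26% and 16.3% of all genes. Their median was 0.28, or 0.19 with the 1 gene that was below background in 1 group at its bound. Sox10, a glial transcription factor, was higher by 0.27. Lymphocyte genes showed no settled direction: 3 of 10 were higher and 1 lower without overlap, against 26% and 16.3% of all genes, and the median of 0.21 was -0.05 and 0.43 without replicates 1 and 2 of Spink3+/+, 0.14 without replicate 1 of Spink3-/-XKI/+ and -0.29 with slide row as a block. Cd3e, a chain of the T cell receptor complex, stood at 4.04 and 4.11 against 4.56 and 4.35.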
